A study of Rattus norvegicus with 14 samples.

Results

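The drug and organic anion transporters described here are 10 genes of the rat choroid plexus (CP), taken by name from 15154 genes that the arrays measured under a gene symbol. They comprise the ATP-driven exporters Abcb1a, Abcg2, Abcc1, Abcc4 and Abcc5, the organic anion transporting polypeptides Slco1a4, Slco1a5 and Slco2a1, the organic anion exchanger Slc22a8 and the peptide transporter Slc15a2. Their mRNA was measured in CP of the lateral ventricles of Wistar rats 2 months old, 2 weeks after removal of the ovaries (OVX), removal of the testes (OOX) or a sham operation. The 14 arrays comprise 3 sham females, 3 OVX females, 4 sham males and 4 OOX males, and each array carries 1 RNA pool of 3 animals of the named group, with no other treatment or allele. The animals listed for a group are too few for that many separate pools, and the methods name fewer male pools than the labels do, so pools of a group may share animals. The p-values then measure the spread between these pools, which may be partly technical.

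The CP epithelium makes cerebrospinal fluid and forms the barrier between blood and this fluid. ABC transporters use ATP to push drugs and conjugated metabolites out of the cell, whereas members of the Slco and Slc22 families take up or exchange steroid conjugates, bile acids, prostaglandins, thyroid hormones and acidic drugs. In the CP, exporters of the Abcc family are known on the blood side of the epithelium, and Slc22a8 and Slc15a2 on the side of the fluid, from which they clear acids and small peptides, while Abcb1a, Abcg2 and Slco1a4 are best known from the capillary wall of the brain.

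Values are the log2 signal of a probe minus the median over the probes of its array, so that a value of 1 is a signal 2-fold above that median. Each probe is compared with itself between arrays, and values of different genes cannot be ranked as abundance. Whether a probe also reads related genes was not tested. The scanner software calls a spot well above background or not, and 8 of the 10 transporters were well above background on all 14 arrays, against 75.6% of all genes. The 15 epithelial markers, among them Ttr, Folr1, Kl and Aqp1, were well above background on every array. The 14 arrays were spread over 5 slides and 2 days of scanning. The sham females and OVX replicate 1 were scanned on the first day and all other arrays on the second. Only 1 slide carried both female groups (OVX replicate 1 with sham replicate 3) and only 1 both male groups (OOX replicate 4 with sham replicates 1 and 2), and these are called the shared slides. One pool, OOX replicate 2, stood apart from the other arrays. It held the lowest value of the 14 arrays for 28.5% of genes, where the other arrays held it for 1.81% to 15%. Sham male replicate 1, with the latter share, was the next. Male differences of Abcg2, Slco1a4, Slc22a8 and Slc15a2 are given below with and without OOX replicate 2. Other male differences of the 10 transporters are given with all pools, and for Abcc5, Slco1a5 and Slco2a1 also as ranges with a replicate left out.

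**Figure D1:**
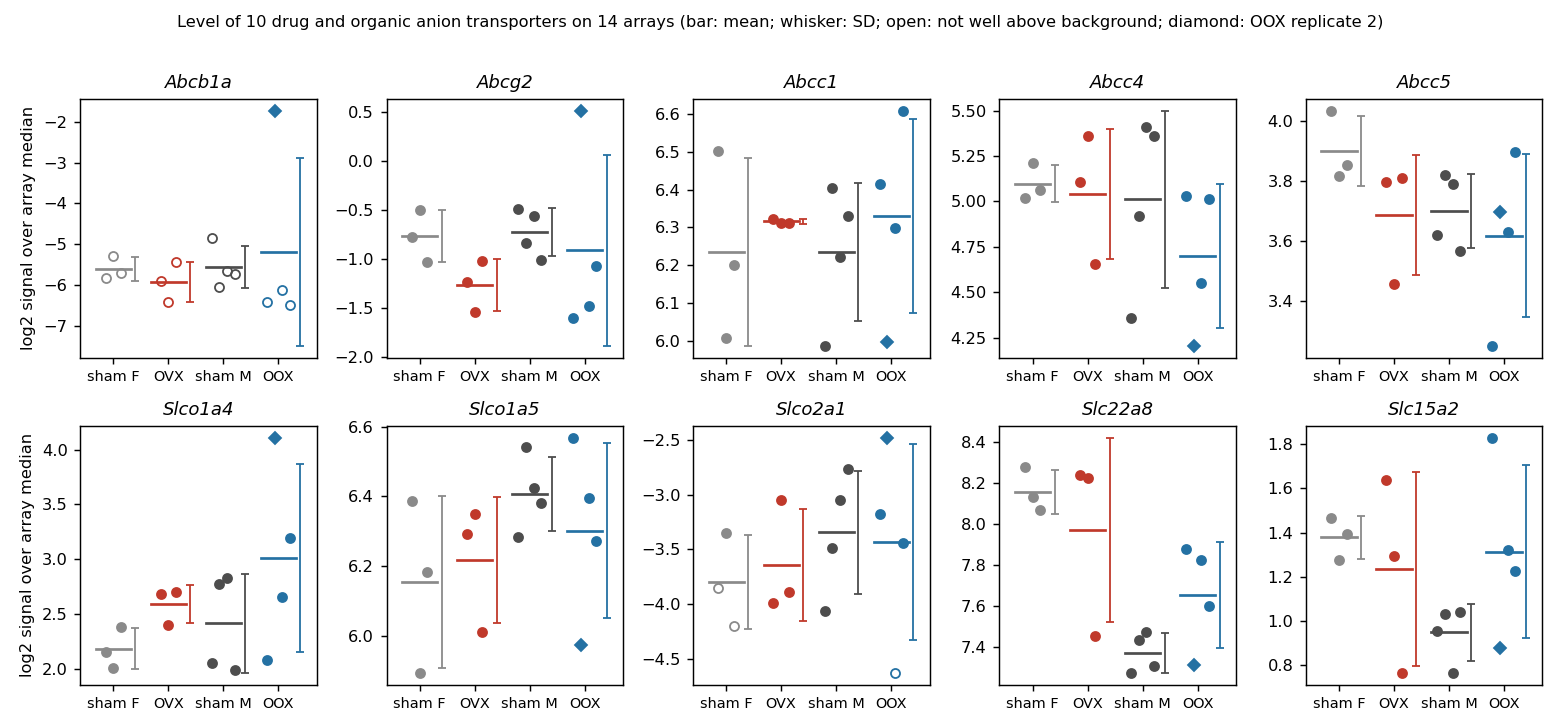
Log2 signal over the array median (vertical axes, each with its own range) of the 10 transporters on each of the 14 arrays, by group. Bars are means, whiskers SDs and open symbols arrays on which the probe was not well above background. The diamond of OOX replicate 2 is the highest of all arrays for Abcb1a at -1.73, Abcg2 at 0.51, Slco1a4 at 4.11 and Slco2a1 at -2.48, and Slc22a8 lies between 7.27 and 7.47 in sham males and between 8.07 and 8.28 in sham females.

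The sequences before the transcription start of the 4 transporters with the smallest p-values, Slco1a4 and Abcg2 in females and Slc15a2 and Slc22a8 in males, are shown as the stretch in which motifs were sought. RefSeq gave a start on assembly GRCr8 for 9 of the 10 transporters, all but Abcc5. Each line holds the 250 bases before the start, read 5′ to 3′ in the direction of transcription, and capitals mark the motif matches described beneath. Abcg2 lies on the plus strand (chr4:89075224-89075473), Slco1a4 on the minus strand (chr4:176495847-176496096), Slc15a2 on the plus strand (chr11:77519315-77519564) and Slc22a8 on the plus strand (chr1:214927034-214927283).
Abcg2: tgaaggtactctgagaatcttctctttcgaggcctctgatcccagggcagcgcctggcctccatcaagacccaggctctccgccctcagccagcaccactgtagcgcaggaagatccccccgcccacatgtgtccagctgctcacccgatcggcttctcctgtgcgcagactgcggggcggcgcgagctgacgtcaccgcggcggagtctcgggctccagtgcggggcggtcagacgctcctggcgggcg
Slco1a4: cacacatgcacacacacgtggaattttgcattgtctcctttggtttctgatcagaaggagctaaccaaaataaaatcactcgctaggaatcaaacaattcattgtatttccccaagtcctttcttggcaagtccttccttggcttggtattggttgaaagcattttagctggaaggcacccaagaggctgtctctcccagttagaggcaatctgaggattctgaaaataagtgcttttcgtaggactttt
Slc15a2: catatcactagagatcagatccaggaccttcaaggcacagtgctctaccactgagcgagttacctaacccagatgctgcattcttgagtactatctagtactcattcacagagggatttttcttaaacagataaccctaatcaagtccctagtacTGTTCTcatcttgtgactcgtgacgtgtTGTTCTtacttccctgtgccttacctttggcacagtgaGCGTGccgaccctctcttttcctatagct
Slc22a8: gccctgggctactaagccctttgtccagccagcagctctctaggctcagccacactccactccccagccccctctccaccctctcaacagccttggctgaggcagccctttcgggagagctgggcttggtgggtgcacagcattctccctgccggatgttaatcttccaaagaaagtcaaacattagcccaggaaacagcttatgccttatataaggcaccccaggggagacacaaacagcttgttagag
The motifs were searched on both strands in these 250 bases. The half-site bound by androgen and glucocorticoid receptors, AGAACA, was found in Slc15a2 and in no other of the 9 transporters, in 2 copies that read TGTTCT on the printed strand and begin 67 and 95 bases before the start. Of 27457 rat promoters of the same length, 17.1% held this motif. The core of the xenobiotic response element, GCGTG, was found in 4 of the 9 (Abcc1, Abcc4, Slc15a2 and Slco2a1), against 27.2% of all promoters, and in Slc15a2 it begins 29 bases before the start. The nuclear receptor half-site AGGTCA, the palindromic estrogen response element (whose arms overlap with that half-site in part) and the core of the antioxidant response element, TGACNNNGC, were in none of the 9, against 13.7%, 0.0219% and 10.2% of all promoters. These are matches of letters only. The Abcg2 stretch is rich in G and C (67.2%), whereas those of Slco1a4 and Slc15a2 hold 42.4% and 45.6%, with a median of 52.0% over all promoters.

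Ovariectomy and orchidectomy left no transporter past the threshold. At a limma adjusted p under 0.05, 0 of 10 transporters were called in OVX against sham females, where 6.25% of all genes were called, and 0 of 10 in OOX against sham males, where 0.0858% were. The male effect minus the female effect, fitted over all 14 arrays, also called 0 of 10, against 0.251% of all genes. At an unadjusted p under 0.05 the counts were 2 of 10 in females (Slco1a4 higher and Abcg2 lower in OVX), 0 of 10 in males and 0 of 10 in the difference between the sexes, beside 20%, 6.87% and 10.3% of all genes (in females 9.26% higher and 10.7% lower). With a fold above 1.5 required as well, the counts were 0 of 10 in each of the 3, beside 13.9%, 3.43% and 8.66%. The median log2 difference of the 10 transporters was -0.10 in females and 0.0068 in males, and over all genes -0.07 and 0.02.

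**Figure D2:**
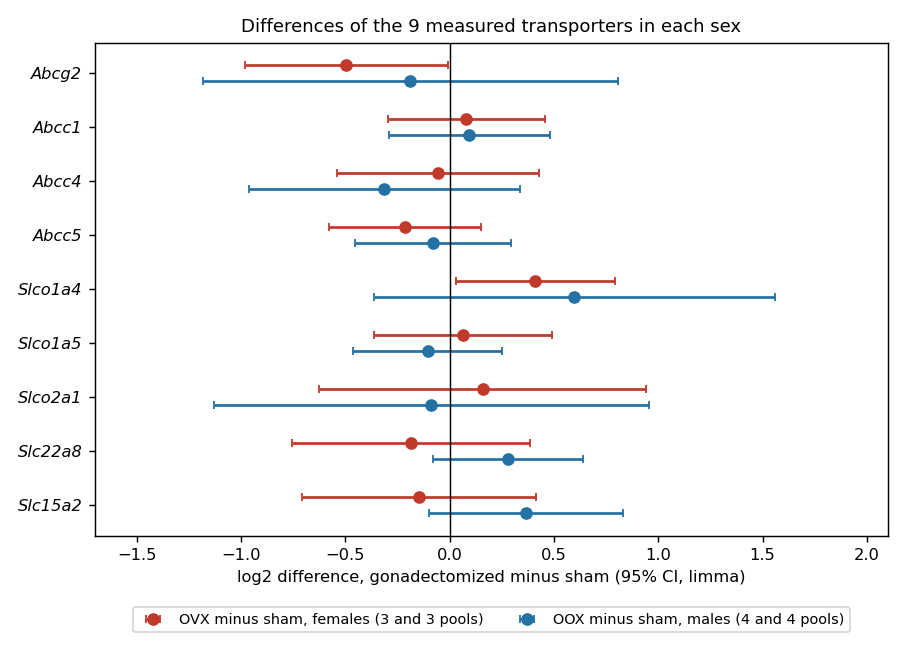
Log2 difference (horizontal axis) of 9 transporters between gonadectomized and sham rats, in females and males, with 95% confidence intervals from limma. Abcb1a is left out because 13 of its 14 values are near background. In females the intervals of Slco1a4 (0.03 to 0.79) and Abcg2 (-0.98 to -0.0068) lie beside 0, and every male interval spans 0.

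Abcb1a encodes P-glycoprotein, the drug pump of the capillary wall. It was well above background on 1 of the 14 arrays, that of OOX replicate 2. There its log2 signal was -1.73, which is 2.82 above the weakest signal counted as well above background on that array. The other 13 values lay between -6.48 and -4.84 and have no order, so no fold is given for either comparison.

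Abcg2, the breast cancer resistance protein, exports sulfated steroids and many drugs. Its log2 signal was -0.77, -0.51 and -1.03 in sham females and -1.23, -1.55 and -1.02 in OVX females. The 2 lowest of these values were OVX pools, and OVX replicate 3 overlapped with sham replicate 3. Abcg2 was lower by 0.49 on the log2 scale in OVX (log2 difference -0.49, SE 0.20, unadjusted p = 0.0477, limma adjusted p = 0.217), and by only 0.20 on the shared slide (log2 difference -0.20). In sham males the values were -0.49, -0.83, -0.56 and -1.01, and in OOX males -1.60, 0.51, -1.48 and -1.08. OOX replicate 2 was the highest of all arrays and the other 3 OOX pools lay below all 4 sham pools. The male log2 difference was -0.19 (SE 0.43, adjusted p = 0.961) with all pools and -0.66 (SE 0.19, unadjusted p = 0.0104, adjusted p = 0.440) without OOX replicate 2. Without OOX replicate 1 it was 0.04, and with sham replicate 1 left out beside OOX replicate 2 it was -0.58. Leaving out both was chosen after the data were seen.

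Abcc1, Abcc4 and Abcc5 encode multidrug resistance proteins that export conjugates of glutathione, glucuronate and sulfate and, for Abcc4 and Abcc5, cyclic nucleotides. Abcc1 was read from the brightest of its 3 probes, which gave 6.50, 6.01 and 6.20 in sham females and 6.32, 6.31 and 6.31 in OVX females. The OVX values lay within the range of the sham values. The same probe gave 5.99, 6.40, 6.22 and 6.33 in sham males and 6.42, 6.0, 6.30 and 6.61 in OOX males, and these groups overlapped as well. The log2 differences were 0.08 (SE 0.16, adjusted p = 0.800) in females and 0.09 (SE 0.17, adjusted p = 0.959) in males.

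The other probes of Abcc1 gave another picture in males. The dimmest probe (A_64_P088800) read 0.32, 0.75, 0.65 and 0.60 in sham males and -0.01, -0.27, -0.14 and -0.08 in OOX males. These groups did not overlap, as was so for 4.19% of all single probes of named genes in this comparison. The log2 difference was -0.70 (SE 0.14, unadjusted p = 0.000792, adjusted p = 0.276 over 30366 probes) and -0.61 on the shared male slide. The middle probe (A_64_P126103) read 5.70, 6.27, 5.90 and 5.98 in sham and 5.44, 5.22, 5.49 and 5.78 in OOX males, with a log2 difference of -0.48 (SE 0.17, unadjusted p = 0.0233, adjusted p = 0.639) and of -0.21 on that slide. All OOX pools but replicate 4 lay below the sham pools on that probe. In females these probes differed by -0.07 (SE 0.20) and -0.12 (SE 0.23). With the mean of the 3 probes in place of the brightest, the male difference of Abcc1 turned to -0.36 (unadjusted p = 0.0455, adjusted p = 0.653). All 3 probes carry the same transcript in the array annotation, and which part of it each reads was not tested.

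**Figure D3:**
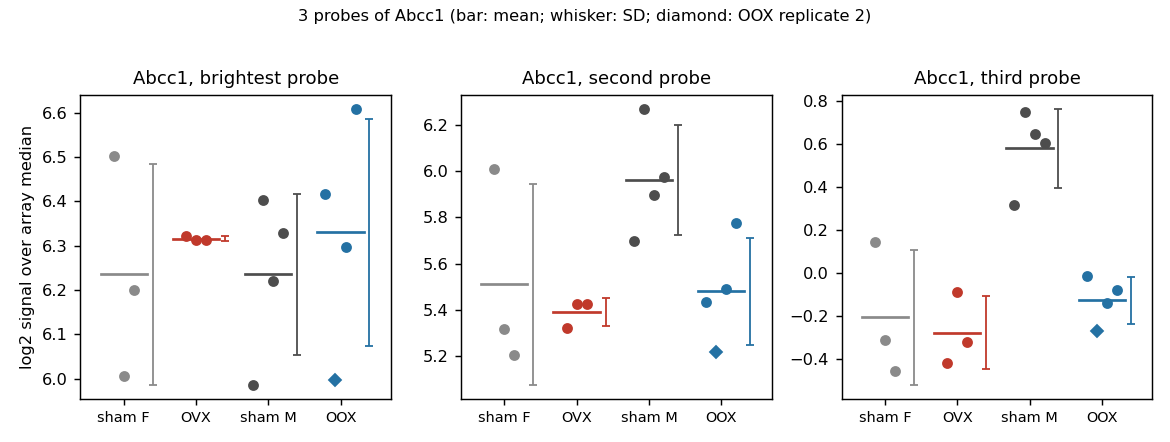
Log2 signal over the array median of the 3 Abcc1 probes on each array, by group, with means (bars) and SDs (whiskers). For the dimmest probe the 4 sham male pools (0.32 to 0.75) lie above the 4 OOX pools (-0.27 to -0.01), whereas the brightest probe overlaps between all groups.

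Abcc4 gave 5.02, 5.21 and 5.06 in sham females and 5.11, 5.36 and 4.66 in OVX females, with overlapping groups and a log2 difference of -0.06 (SE 0.20, adjusted p = 0.894). In males it gave 4.36, 4.92, 5.41 and 5.36 in sham and 5.03, 4.20, 4.55 and 5.02 in OOX pools, a log2 difference of -0.31 (SE 0.28, adjusted p = 0.914). On the shared male slide the sign was opposite (0.38). The other Abcc4 probe gave -0.56 (SE 0.26, unadjusted p = 0.0617) in males and -0.11 (SE 0.22) in females.

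Abcc5, whose brightest probe is spotted 10 times on each array, gave 4.03, 3.82 and 3.85 in sham females and 3.8, 3.46 and 3.81 in OVX females. All OVX pools lay below the sham pools on this probe, though at the nearest by only 0.0091. In this comparison 27.7% of all genes did not overlap between groups (11.5% higher and 16.2% lower in OVX) and 2 of 10 transporters, Abcc5 lower and Slco1a4 higher. In males 0 of 10 were apart in this way, beside 3.99% of all genes. The log2 difference of Abcc5 was -0.21 (SE 0.15, adjusted p = 0.461) and -0.05 on the shared slide. In males Abcc5 ranged from 3.57 to 3.82 in sham and from 3.25 to 3.90 in OOX pools, with a difference of -0.08 (SE 0.16, adjusted p = 0.959). The other Abcc5 probe (A_64_P038192) overlapped between the female groups. It gave a log2 difference of -0.11 (SE 0.12, limma unadjusted p = 0.404) in females and of 5.7e-05 (SE 0.12) in males.

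Slco1a4 encodes an uptake carrier of steroid conjugates, thyroid hormones and digoxin. It gave 2.16, 2.01 and 2.39 in sham females and 2.69, 2.40 and 2.70 in OVX females. The OVX pools all lay above the sham pools, at the nearest by 0.012. The log2 difference was 0.41 (SE 0.16, 95% confidence interval 0.03 to 0.79, unadjusted p = 0.0390, limma adjusted p = 0.194) and 0.30 on the shared slide. In males the values were 2.06, 2.78, 2.83 and 1.99 in sham and 2.09, 4.11, 2.66 and 3.20 in OOX pools. These groups overlapped, with OOX replicates 2 and 4 above all sham pools. The male difference of 0.60 (SE 0.42, adjusted p = 0.850) was 0.23 (SE 0.33, adjusted p = 0.898) without OOX replicate 2, and 0.11 with sham replicate 1 left out as well.

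Slco1a5, a related carrier that lies on the same chromosome (its 250 bases before the start are at chr4:176963813-176964062), gave 6.39, 5.89 and 6.18 in sham and 6.29, 6.35 and 6.01 in OVX females. In males it gave 6.28, 6.54, 6.43 and 6.38 in sham and 6.57, 5.97, 6.40 and 6.27 in OOX pools. The groups overlapped in both sexes, with log2 differences of 0.06 (SE 0.18, adjusted p = 0.863) and -0.11 (SE 0.16, adjusted p = 0.959). Slco2a1, the prostaglandin transporter, was a dim probe. It was well above background on 1 of 3 sham female, 3 of 3 OVX, 4 of 4 sham male and 3 of 4 OOX arrays, and its log2 signal ran from -4.63 to -2.48. Its log2 differences of 0.16 (SE 0.32) in females and -0.09 (SE 0.46) in males had adjusted p-values of 0.810 and 0.980.

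Slc22a8, the organic anion transporter OAT3, gave 8.28, 8.13 and 8.07 in sham females and 8.24, 8.22 and 7.46 in OVX females. After scaling, OVX replicate 3 was lower than every other female pool, and the other 2 lay within the sham range. The log2 difference of -0.19 (SE 0.24, adjusted p = 0.687) became 0.07 without this pool. In males it gave 7.27, 7.44, 7.47 and 7.31 in sham and 7.88, 7.31, 7.83 and 7.60 in OOX pools. All OOX pools but replicate 2 lay above the sham pools. The log2 difference was 0.28 (SE 0.16, unadjusted p = 0.110, adjusted p = 0.755), 0.24 on the shared slide, and 0.40 (SE 0.13, unadjusted p = 0.0176, adjusted p = 0.482) without OOX replicate 2.

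The Slc22a8 probe came close to the scanner's ceiling. It was marked as saturated on no array, but its background-subtracted signal was 87.3% to 108% of the dimmest saturated probe of the same array on the 6 female arrays and on OOX replicates 1, 3 and 4, and 74.0% on OOX replicate 2. On the sham male arrays it was 52.5% to 67.9%. Before scaling, the signal was 30126, 33991, 37120 and 27915 in sham males and 48604, 41553, 59343 and 46450 in OOX males, which did not overlap, while the array medians by which these signals were scaled ran from 176 to 209 on sham male and from 206 to 261 on OOX arrays. Among females, OVX replicate 3 read 50676 before scaling, between sham replicate 2 at 50440 and OVX replicate 2 at 51136. Its array median was 289, against 171 to 207 on the other female arrays. How far the ceiling compressed differences among female and OOX arrays was not tested.

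**Figure D4:**
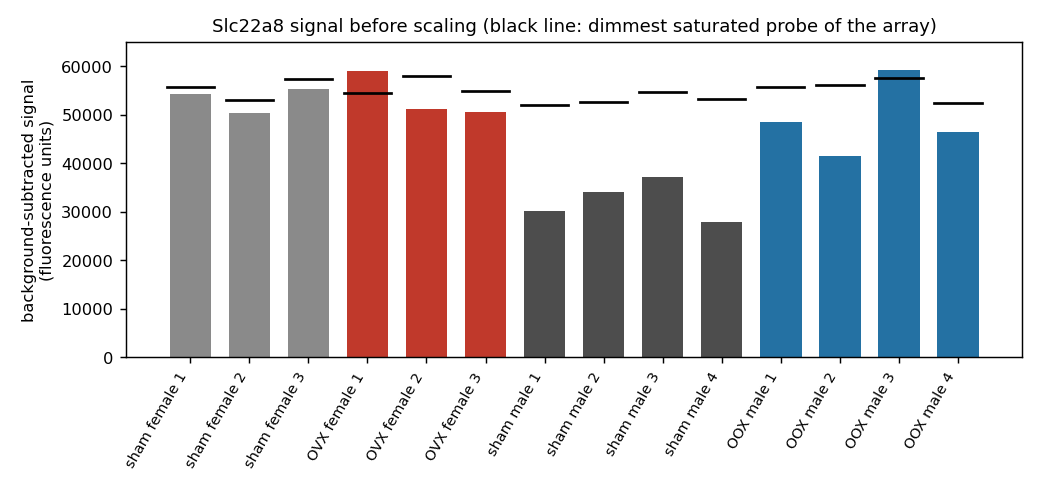
Background-subtracted signal of Slc22a8 in fluorescence units before any scaling between arrays (bars, from 0), with the dimmest saturated probe of each array as a black line. The sham male arrays, at 27915 to 37120, stand well below the line, and the female arrays, at 50440 to 59020, lie near it.

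Slc15a2, the peptide transporter PEPT2, gave 1.47, 1.28 and 1.39 in sham females and 1.64, 1.30 and 0.77 in OVX females. OVX replicate 1 lay above the sham range, replicate 2 within it and replicate 3 below it, and the log2 difference was -0.15 (SE 0.23, adjusted p = 0.754). It was 0.24 on the shared slide and 0.09 without OVX replicate 3. In males Slc15a2 gave 0.96, 1.03, 0.76 and 1.04 in sham and 1.83, 0.88, 1.32 and 1.22 in OOX pools. All OOX pools but replicate 2 lay above the sham pools, with a log2 difference of 0.37 (SE 0.20, unadjusted p = 0.108, adjusted p = 0.753) and of 0.51 (SE 0.18, unadjusted p = 0.0234, adjusted p = 0.501) without OOX replicate 2.

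By the brightest probe, Slc22a8 and Slc15a2 were also the 2 transporters whose sham males did not overlap with sham females. Both were lower in males, beside 13.1% of all genes that did not overlap and 8.41% that were lower. Of the other probes, the dimmest of Abcc1 did not overlap either and was higher in sham males (0.32 to 0.75 against -0.46 to 0.15). The other Abcc5 probe was lower in sham males, with a narrow gap (-0.33 to -0.122 against -0.119 to 0.0069). No share over all single probes was computed for this. The group means of Slc22a8 and Slc15a2 were 7.37 ± 0.10 against 8.16 ± 0.11 and 0.95 ± 0.13 against 1.38 ± 0.10 (SD, n = 4 and n = 3 pools). All sham females were scanned on the first day and all sham males on the second, so sex and scan day cannot be told apart in these means. On the second day alone, OVX replicates 2 and 3 gave 8.22 and 7.46 for Slc22a8 and 1.30 and 0.77 for Slc15a2. Before scaling, these pools read 51136 and 50676 for Slc22a8, near the ceiling, against 27915 to 37120 in sham males. The male effect minus the female effect was 0.47 (SE 0.28, adjusted p = 0.574) for Slc22a8 and 0.51 (SE 0.32, adjusted p = 0.604) for Slc15a2, the 2 smallest p-values of the 10 transporters in that test. With a replicate left out it ran from 0.21 to 0.60 for Slc22a8 and from 0.28 to 0.71 for Slc15a2.

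In OOX replicate 2, 4 of the 10 transporters (Abcb1a, Abcg2, Slco1a4 and Slco2a1) were higher than on any other array and more than 2-fold above the median of the other 13, as were 4.40% of all genes. On the other arrays 0 of 10 transporters met this rule, and 0.792% to 3.62% of all genes did. The excess over that median was 1.71 for Slco1a4, 1.53 for Abcg2 and 1.01 for Slco2a1 on the log2 scale. For Abcb1a, near background on the other arrays, it was at least 2.78, with each such array set to its weakest signal well above background or to its own value where higher. Abcc4 was at its lowest on the same array, and Abcc1 and Slco1a5 were at their lowest but for 1 array. Among related transporters, Slc22a2, well above background on 4 of 14 arrays, exceeded the median of the others by at least 4.31 in the same way, Slc22a3 by 3.14, Abcb1b by 2.58 and Slc22a6 by 2.37. Slc22a2 and Slc22a3 carry organic cations, Abcb1b is the other rat P-glycoprotein and Slc22a6 is the organic anion transporter OAT1. These 4 were picked for their excess. Above that median lay 4 of 11 other ABC exporters, 6 of 10 other Slco carriers and 10 of 18 other Slc22 and Slc47 carriers. So did 5 of 8 other peptide and bile acid carriers. More than 2-fold above it were 1, 1, 5 and 1 of these lists, counted without regard to background. The lowest was Slc22a24 at -0.72.

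Markers of vessels, stroma, glia and neurons moved on the same array. The highest of the 14 values fell on OOX replicate 2 for 6 of 12 endothelial, 5 of 9 mural (pericyte and smooth muscle), 5 of 11 fibroblast, 6 of 11 glial, 2 of 12 neuronal, 2 of 12 macrophage and 0 of 15 epithelial markers. Over all genes it did so for 7.52%. Within a list the genes did not move alike. Endothelial genes ran from -0.25 (Kdr) to 2.81 (Cldn5) against the median of the other arrays, with a median of 0.59 and 5 of 12 more than 2-fold above. Mural genes ran from 0.02 (Notch3) to 3.18 (Tagln), with a median of 0.86 and 4 of 9. Fibroblast genes ran from -1.03 (Sfrp2) to 3.60 (Aldh1a2), with a median of 0.54 and 4 of 11, and glial genes from -0.62 (Foxj1) to 2.52 (Slc1a2), with a median of 0.98 and 5 of 11. All 12 neuronal genes lay above the median of the other arrays, by 0.25 to 2.74, with a median of 1.13 and 8 of 12 more than 2-fold above. The neuronal list was high on other arrays too. Its median deviation from the 14 arrays was 1.01 on OOX replicate 2, 1.08 and 1.04 on sham female replicates 2 and 3 and 2.15 on sham male replicate 1. All 15 epithelial genes lay below the median of the other arrays. Of the epithelial markers 9 were saturated on some arrays, 5 of them on all 14, so that their level over the array median follows that median, and the 6 saturated on no array had a median of -0.48. The summed mural signal was 6.61 on the log2 scale there and 4.99 to 5.09 in the other OOX pools, with 4.86 to 5.46 in sham males, 4.93 to 5.37 in OVX and 5.30 to 5.34 in sham females. The summed endothelial signal, 7.51, lay within the 6.80 to 7.64 of the other OOX pools. All 12 endothelial and all 9 mural markers were well above background on every array. The part of these cells in the levels of the 4 transporters was not tested, and in a whole tissue fewer cells of a type and less RNA per cell cannot be told apart.

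**Figure D5:**
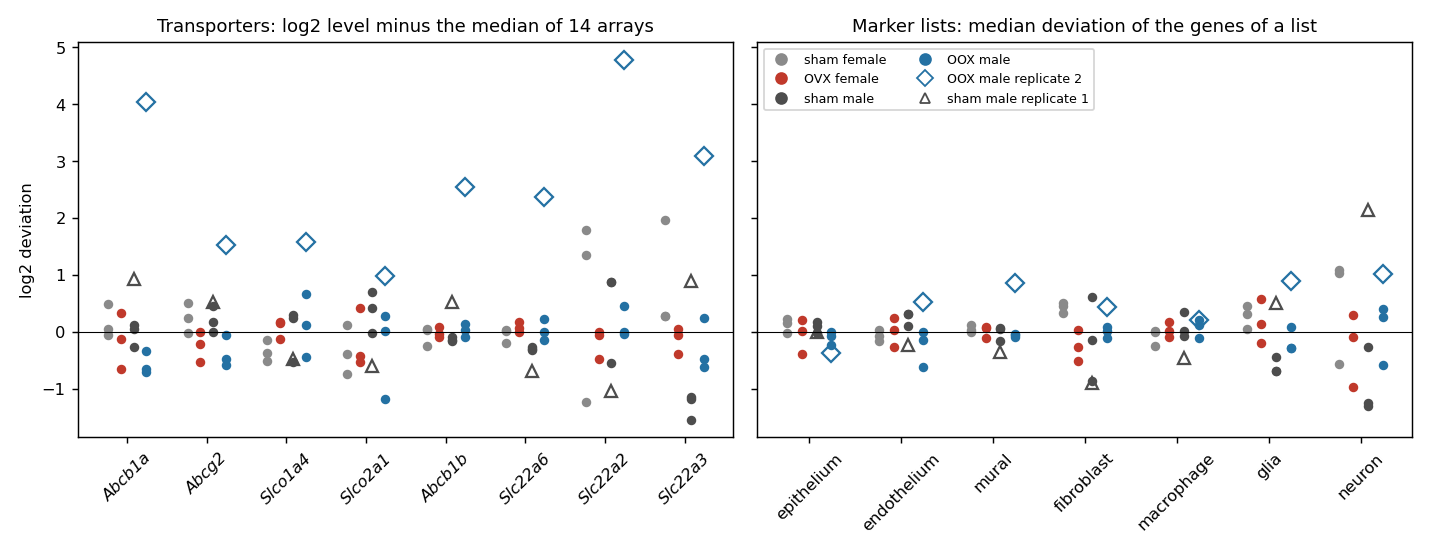
Left, log2 level of 8 transporters on each array minus the median of the 14 arrays, which for Abcb1a and Slc22a2 is a value near background. These 8 were picked because they were high on OOX replicate 2, so their rank there follows from the choice. Of the 10 transporters, 4 lay above the median of the other arrays there. Right, the median deviation of the genes of each marker list on each array. Colors are groups, and OOX replicate 2 (diamond) is highest for all 8 transporters and for the endothelial, mural and glial lists (0.53, 0.85 and 0.90) and lies at -0.38 for the epithelial list, which holds saturated probes, while sham male replicate 1 (triangle) is highest for the neuronal list at 2.15.

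The genes nearest in pattern were sought among 11116 genes well above background and not saturated on every array, by the root mean square (RMS) difference of centred log2 values over the 14 arrays. For Slco1a4 they were Rspo3, Palb2 and Txlng (RMS difference 0.26 to 0.29, against a median of 0.63 over all genes and 0.55 for Slco1a4 around its own mean). For Abcg2 they were Eepd1, S1pr1 and Il33 (0.26, with a median of 0.63). Of these 6 genes all were high on OOX replicate 2, from 0.73 for S1pr1 to 1.85 for Rspo3 above the median of the other arrays. The nearest to Slc15a2 were Tead2, Rab5b and Stam (0.15 to 0.16, median 0.35) and to Slc22a8 Ccdc124, Zmynd15 and Cspg5 (0.18 to 0.20, median 0.40). Among the 10 transporters themselves the closest pairs were Abcc1 with Slco1a5 (0.17) and Slc22a8 with Slc15a2 (0.24). These are descriptions over arrays that share the set-apart pool and the scan days.

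Related transporters of the same families were described from lists by family. In females, where 1.83% of all genes were called higher and 4.42% lower, 3 that were measured well above background on all 6 arrays passed the test. Slc22a23, an orphan member of the Slc22 family, gave 3.79, 3.77 and 3.60 in sham and 2.27, 2.26 and 2.44 in OVX females. The groups did not overlap, and Slc22a23 fell by 1.4 on the log2 scale (SE 0.13, limma adjusted p = 0.0262), and by 1.33 on the shared slide. Male pools of either group, at 1.74 to 2.79, lay near the OVX and below the sham female pools.

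Slc22a7, the organic anion transporter OAT2, gave 2.75, 2.68 and 2.66 in sham and 2.0, 1.87 and 1.84 in OVX females and fell by 0.79 (SE 0.12, adjusted p = 0.0401). Slco5a1, an orphan member of the Slco family, gave -3.62, -3.24 and -2.95 in sham and -2.22, -1.45 and -2.0 in OVX females and rose by 1.38 (SE 0.26, adjusted p = 0.0401). Neither overlapped between the female groups. Within the shared slide the differences were -0.66 and 0.73. With scan day as a block the adjusted p-values rose to 0.108 for Slc22a23, 0.274 for Slc22a7 and 0.303 for Slco5a1, and with slide as a block to 0.534, 0.534 and 0.548. The male minus the female effect was 1.28 (adjusted p = 0.146), 0.67 (adjusted p = 0.346) and -1.60 (adjusted p = 0.125) for the 3 genes. Each was also past the threshold with all groups in 1 fit, but with a replicate left out Slc22a23 and Slc22a7 kept the call only without sham replicate 2, and Slco5a1 lost it with any.

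By list, in females 0 of 11 other ABC exporters rose and 1 was called lower, 1 of 10 other Slco carriers rose and 2 were called lower, 0 of 18 other Slc22 and Slc47 carriers rose and 2 fell, and 0 of 8 other peptide and bile acid carriers rose and 2 were called lower. Of those called lower all but Slc22a23 and Slc22a7 (Abcc12, Slco4c1, Slco6c1, Slc15a5 and Slc51a) were at background on every female array and have no fold. The medians of the 4 lists were -0.0016, -0.17, -0.18 and -0.12, against -0.07 over all genes. In females 16 of these 47 genes had a limma unadjusted p under 0.05, those at background included, beside 20% of all genes. In males 0 of the 47 were called by limma, and 3 had an unadjusted p under 0.05, beside 6.87% of all genes. Among genes that every array of either group measured well above background, the smallest p-value of each list there belonged to Slco4a1, a thyroid hormone carrier (log2 difference -0.69, SE 0.16, unadjusted p = 0.00194, adjusted p = 0.364, -0.27 within the slide), Slc22a17, the lipocalin receptor (saturated on all 14 arrays, so that no difference is given), Abcg3l1 (-0.24, adjusted p = 0.830) and Slc15a4 (-0.11, adjusted p = 0.959). Slc22a6 had a male difference of 1.0 (SE 0.51, adjusted p = 0.707), which fell to the lowest of its alternatives, 0.32, with both set-apart pools left out. In the other lists the next smallest p-values belonged to Slco5a1 (-0.22, limma adjusted p = 0.937), Abcc10 (-0.42, adjusted p = 0.833) and Slc15a3 (-0.07, adjusted p = 0.963).

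Of 15 regulators known for control of such transporters or for anchoring them, 0 were called in either sex by limma (3 in females and 1 in males had an unadjusted p under 0.05, beside 20% and 6.87% of all genes), with 14 well above background on every array. The 2 smallest p-values in females belonged to the bile acid receptor Nr1h4 (log2 difference 0.83, SE 0.21, adjusted p = 0.0663) and the hepatocyte factor Hnf4a (0.96, SE 0.25, adjusted p = 0.0749), both higher in OVX. The adjusted p of Nr1h4 ran from 0.0419 to 0.534 over its alternatives and was under 0.05 in 2 of 18, and that of Hnf4a from 0.0486 to 0.797 and in 1 of 18. In males they belonged to Arnt, the partner of the aryl hydrocarbon receptor (-0.38, SE 0.16, adjusted p = 0.648), and the membrane linker Ezr, which was saturated on all 14 arrays and has no difference.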

How the data were processed

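RNA of each pool was hybridized by the authors to 1-colour (Cy3) Agilent rat arrays, and per the file headers the scans were read with Feature Extraction 10.5.1.1, annotated on rn4. In the deposited scanner files each spot has a fluorescence intensity, from which the software had subtracted the background and spatial trends, with no scaling between arrays. The flags that the deposited files give per spot are another value, a score of 0 or 1 for saturated, outlying or well above background. The deposited value table holds log2 values that the authors centred on the median of each array with BRB-ArrayTools, and was used as an alternative. Control spots and outlier spots (222 to 877 per array) were left out here and saturated spots kept. Of 30367 rat probes, 18004 took the names of 15154 genes through a RefSeq table of assembly GRCr8. The brightest probe stands for a gene.

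The log2 signal minus the array median entered the linear models of limma 3.58.1 (R 4.3.3), one per sex and, for the difference between the sexes, one over all 14 arrays, with Benjamini-Hochberg adjustment over 27517 genes and unnamed probes. The 10 transporters, the related lists and the markers were chosen with earlier results of these data known. The text names all 10, of each related list the called genes or else the 2 with the smallest unadjusted p in each sex that all arrays of 1 group measured well above background, the 3 genes nearest in pattern to the 2 transporters with the smallest p in each sex, and up to 4 genes by level of marker lists. The marker genes at either end of a list on the set-apart pool, and the related genes named for the set-apart pool, were chosen after their values were seen. Alternatives tried were quantile normalization, the 75th percentile in place of the median, normexp (offset 50, on spot medians, since the files hold no spot means), dim probes filtered, outlier spots kept, the value table, the mean over probes, replicate, slide and scan day blocks, array weights, the test of the methods, all groups in 1 fit and each array left out. Added after the data were seen were single probes and both set-apart male pools left out. The number of arrays limits the precision. The fits were tested on simulated data. Of simulated 2-fold changes they recovered 30% in females, 29% in males and 22% in the difference between the sexes. Of simulated 5-fold changes they recovered 78%, 80% and 77%.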

Additional observations from a re-analysis of the deposited data

Results flagged for a closer look

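Among male groups of 4 pools, 1 value of a transporter stood far from the other pools of its group. Abcb1a, the capillary P-glycoprotein, had a log2 signal of -1.73 in OOX replicate 2, and the gap to the next OOX pool was 0.92 of the range of the group. The other OOX pools were not well above background for this probe. In all, 28 groups of values (14 probes in 2 male groups) were examined in this way, and chance marks about 1 in 20 groups.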

How the results depend on the processing

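No alternative brought any of the 10 transporters under an adjusted p of 0.05, with each array left out as well (0 to 0 called in each comparison). At an unadjusted p under 0.05 the female count was 2 of 10, but over 18 alternatives Slco1a4 passed in 11 and Abcg2 in 7. Neither passed with all groups in 1 fit or with slide or scan day as a block. The same held without OVX replicate 1, sham female replicate 1 or sham female replicate 2. Under that rule 0 transporters passed in males, but over 20 alternatives Slc22a8 did in 7, Slc15a2 in 3, Abcg2 in 2 and Abcc1 and Slco1a4 in 1 each, at most 3 at once (Abcg2, Slc15a2 and Slc22a8 without OOX replicate 2 or both set-apart pools). In the difference between the sexes Slc15a2 passed in 2 and Slc22a8 in 1 of 26. The direction was kept in 177 of 198 alternative values in females and 205 of 216 in males, and in all of them for Slco1a4, Abcg2 and Abcc5 in females and Slco1a4, Slc22a8 and Slc15a2 in males. Reversed in females were Abcc4 with the 75th percentile (0.025), quantiles (0.065), the slide block (0.043) and the scan day block (0.0094), Slco2a1 with quantiles (-0.18), normexp (-0.082) and the scan day block (-0.19), Abcc1 with the mean over probes (-0.036), Slc15a2 with the slide (0.24) and scan day blocks (0.26), and Slc22a8 with the same blocks (0.17 and 0.082). Reversed in males were Abcc1 with the mean over probes (-0.36) and, with the slide block, Abcc4 (0.38), Abcc5 (0.18) and Slco2a1 (0.34). Slc15a3, a related gene outside the 10, was also reversed with the slide block (0.20). With a replicate left out, female differences ran from -0.034 to 0.21 for Abcc1, -0.22 to 0.14 for Abcc4, -0.067 to 0.18 for Slco1a5, -0.14 to 0.39 for Slco2a1, -0.35 to 0.088 for Slc15a2 and -0.32 to 0.073 for Slc22a8. Male differences ran from -0.17 to 0.041 for Abcc5, -0.66 to 0.042 for Abcg2, -0.19 to 0.0046 for Slco1a5 and -0.41 to 0.31 for Slco2a1, and from -0.13 to 0.090 for the related gene Slc15a3. The cause of these reversals was not tested.

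The calls over all genes that stand beside these counts moved more. In females 947 genes were called, and 64 with quantiles, 112 with normexp, 188 without dim probes, 231 with all groups in 1 fit, 14 with the scan day block, 0 with the slide block and 2 to 951 with an array left out. In males 13 were called, and 0 with normexp, with all groups in 1 fit or with both set-apart pools left out, 27 with array weights and 6 to 12 with an array left out. The difference between the sexes called 38 genes, and 84 with the 75th percentile, 64 with quantiles, 69 in the value table, 59 without dim probes, 65 with both set-apart pools left out, 136 with array weights, 26 with the scan day block, 10 with the slide block and 19 to 49 with an array left out. In females the split was 277 higher and 670 lower, and 384 and 651 with the 75th percentile, 345 and 608 in the value table and 37 and 27 with quantiles. Blocked by slide or scan day, OVX replicate 1 alone carries the female difference. All male arrays were scanned on 1 day, so scan day gave no male value. With replicate number as a block (replicate block) 0 of 10 transporters were called in each comparison, and 0, 8 and 9 genes in all. Deviations of same-numbered pools correlated from -0.02 to 0.14 in females and from -0.31 to 0.14 in males. Those of pools with unlike numbers correlated from -0.14 to 0.06 and from -0.30 to 0.42. With so few pools these values cannot decide whether the numbers pair the pools. The test of the methods, a plain test per gene, called 0 of 10 in each sex by their rule and after Benjamini-Hochberg adjustment, and of all genes 1684 in females and 354 in males by that rule and 3 and 0 after adjustment. Dim probes (Abcb1a, Slco2a1) and near the ceiling (Slc22a8) limit what these arrays can show.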
